A study of Mus musculus with 6 samples.

Results

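The heat shock protein and chaperone genes of mouse embryonic stem cells (ESCs) are described here across 3 transfections. Members were taken by symbol from the deposited expression table: every symbol that begins with Hsp, every numbered Dnaja, Dnajb or Dnajc gene, the chaperonin genes Cct2 to Cct8 and Tcp1. This gave 79 of the 13743 entries of the table, and 70 of them averaged 1 RPKM or more across the 6 libraries and were tested. RPKM counts reads per kilobase of transcript and for a fixed number of mapped reads. The cells of all 3 groups were Dgcr8-/- and of strain C57/129, so the controls carry the deletion too. Dgcr8 works with Drosha in the first cut of microRNA precursors, and ESCs without it lack canonical microRNAs. Cells were transfected 16 h after plating and RNA was taken at 48 h. The CTR group received a control transfection whose content is not described, the miR-294 group a microRNA mimic and the siMbd2 group an siRNA against Mbd2, at a stated 50 nM for mimics and siRNAs. Each group has 2 libraries, and each library is the average of 2 sequencing lanes. Separate cultures are not stated for the replicates, so a p-value reflects the scatter of these libraries alone, which may be technical. The cells are of 1 knockout line as far as the labels describe, and whether it is a single clone is not given.

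Chaperones bind proteins that are not yet folded or have lost their fold. Hsp70 proteins do this in cycles of ATP use that J proteins (the Dnaj genes) start and that nucleotide exchange factors such as the Hsp110 proteins end. Hsp90 proteins act later on a set of kinases, receptors and other clients, small heat shock proteins hold unfolded proteins without ATP, and the chaperonins enclose a protein in a barrel. The cytosolic chaperonin CCT folds actin and tubulin, Hsp60 with its lid Hsp10 serves mitochondria, and BiP with Grp94 serves the endoplasmic reticulum (ER). Heat shock factors turn many of these genes on through heat shock elements in promoters, while the unfolded protein response turns on the ER set. ESCs divide fast and are known for high chaperone levels.

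The siRNA target was lower in the siMbd2 libraries, with Mbd2 at 7.33 and 6.34 RPKM against 26.8 and 27.9 in CTR, and it was also lower in the miR-294 libraries, at 11.3 and 12.3. Dgcr8 stood at 6.66 to 8.44 RPKM in the 6 libraries, and a gene-level value cannot show whether the transcript is intact. The 7 ESC markers summed to 5299 to 5704 RPKM in CTR, 4802 to 4817 in miR-294 and 6151 to 6493 in siMbd2, most of it from Dppa5a. With miR-294, Pou5f1 and Zfp42 rose (0.52 and 0.65) and Nanog, Sox2 and Dppa5a fell (-0.80, -0.51 and -0.36). Markers of other cell types were low throughout. The 2 neural markers in the table (Pax6, Sox1) summed to 17.9 to 18.3 RPKM in CTR, 7.28 to 7.69 in miR-294 and 13.1 to 15.1 in siMbd2. The 2 fibroblast markers in the table summed to 1.15 to 3.89 RPKM, the 4 endoderm markers to 1.87 to 3.28, the 3 trophoblast markers to 3.46 to 6.84 and the 2 mesoderm markers to 1.59 to 4.82. The fibroblast, trophoblast and mesoderm sums were highest in the miR-294 libraries and the endoderm sum lowest there. That fall is of Gata4, from 3.05 and 2.48 to 0.96 and 0.92 RPKM, while Gata6, Foxa2 and Sox17 were at most 0.77 RPKM and higher with miR-294 than in CTR. Their part in the results below was not tested. The CTR libraries lay farther apart than the others, with a median absolute log2 difference between replicates of 0.119 over the members, against 0.048 for miR-294 and 0.041 for siMbd2.

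With miR-294, 33 of the 70 tested members were higher than in CTR and 20 were lower, at an adjusted p under 0.05 in limma, and 17 were not called. Over all 11428 genes tested, 27.7% were called higher and 36.8% lower, so the members' shares were 47.1% higher and 28.6% lower. The median log2 difference was 0.10 over the members and -0.08 over all genes. When each library was scaled to the same summed RPKM, the members' median turned to -0.04 and that of all genes to -0.21. There 26 members were higher and 29 lower, against 2240 and 5647 of all 11428 genes. With siMbd2, 16 members were higher than in CTR and 11 lower, 22.9% and 15.7% against a background of 19.5% and 14.9%. The balance of the siMbd2 calls turned with the scaling, to 7 higher and 18 lower at equal summed RPKM and to 8 and 14 after quantile normalization. Of all 11428 genes, 1645 were higher and 2609 lower at equal summed RPKM, and 2061 and 1925 after quantile normalization. Leaving out siMbd2 replicate 1 left 4 higher and 5 lower, and leaving out siMbd2 replicate 2 left 2 and 3. Between the treatments, 29 members were higher with miR-294 than with siMbd2 and 16 were lower, 41.4% and 22.9% against 21.9% and 35.5% of all genes. Values rise and fall here per unit of bulk RNA, so fewer cells of a type and less RNA per cell cannot be told apart. Both treatments are compared with the same CTR libraries.

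The centre of the whole transcriptome depends on the scaling. The median over all genes of miR-294 vs CTR was -0.08 as deposited, -0.01 with median-of-ratios size factors, 0.02 after quantile normalization and -0.21 at equal summed RPKM. The share of higher genes among those called was 42.9% as deposited and 49.4%, 51.3% and 28.4% under these settings. For siMbd2 vs CTR it was 56.7% as deposited and 38.7% at equal summed RPKM, and for miR-294 vs siMbd2 38.1% as deposited against 49.9% with size factors and 51.5% after quantile normalization. The calls lost and gained among the members were as follows.

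Against CTR, 10 of the 33 rises with miR-294 were not called after quantile normalization (Cct3, Cct4, Cct8, Tcp1, Dnajb6, Dnajc7, Dnajc8, Hsp90b1, Hspa4, Hspa5) and 7 at equal summed RPKM (Dnaja3, Dnajb6, Dnajc5, Dnajc7, Hsp90b1, Hspa5, Hspbp1). Of the 20 falls, 4 were lost with size factors (Dnajc10, Dnajc18, Hsp90aa1, Hspb6) and 4 after quantile normalization (Dnajb2, Dnajc10, Dnajc18, Hspb6). Calls gained were 9 falls at equal summed RPKM (Dnajb12, Dnajc6, Dnajc9, Dnajc13, Dnajc14, Dnajc17, Dnajc21, Dnajc22, Hsp90ab1), 3 falls and 3 rises after quantile normalization (Dnajc21, Hsp90ab1, Hspa14 and Dnajb1, Dnajc12, Dnajc30) and 2 rises with size factors (Dnajb1, Dnajc12). With siMbd2, 9 of the 16 rises were lost at equal summed RPKM (Cct5, Dnaja1, Dnajc5, Dnajc7, Dnajc9, Dnajc11, Dnajc19, Hspd1, Hspe1), 8 of them also after quantile normalization (all but Cct5), and 2 with size factors (Dnaja1, Hspe1). Cct4, Hsp90ab1 and Hspb8 gained a lower call under all 3 settings. Hspa9 gained a lower call after quantile normalization and at equal summed RPKM, and Dnajc1, Dnajc3 and Hspb2 at equal summed RPKM alone. The fall of Hspa4l was lost after quantile normalization. Between the treatments, quantile normalization lost 8 rises and 5 falls and gained 8 rises and 2 falls. Equal summed RPKM lost 3 rises and gained 3 falls there, and size factors lost 3 falls and gained 8 rises.

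Each library was also left out in turn. Of the 33 members higher with miR-294 than in CTR, 25 were called every time, and Dnaja3, Dnajb13, Dnajc5, Dnajc7, Dnajc24, Hsp90b1, Hspa5 and Hspbp1 were lost at least once. Of the 20 lower ones, 15 were called every time, and Dnajb2, Dnajc10, Dnajc18, Hsp90aa1 and Hspb6 were lost at least once. For siMbd2 against CTR, Hspg2 was the 1 of 16 higher members called every time, and Dnajb14, Dnajc22 and Hspb11 the 3 of 11 lower ones. Every other siMbd2 call was lost without siMbd2 replicate 1, without siMbd2 replicate 2 or without either. Of the genes named from the pathway lists, Hscb and Lonp1 with miR-294 and Ahsa1, Bag2, Ddit3, Hsbp1 and Hscb with siMbd2 were lost in the same way at least once.

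**Figure D1:**
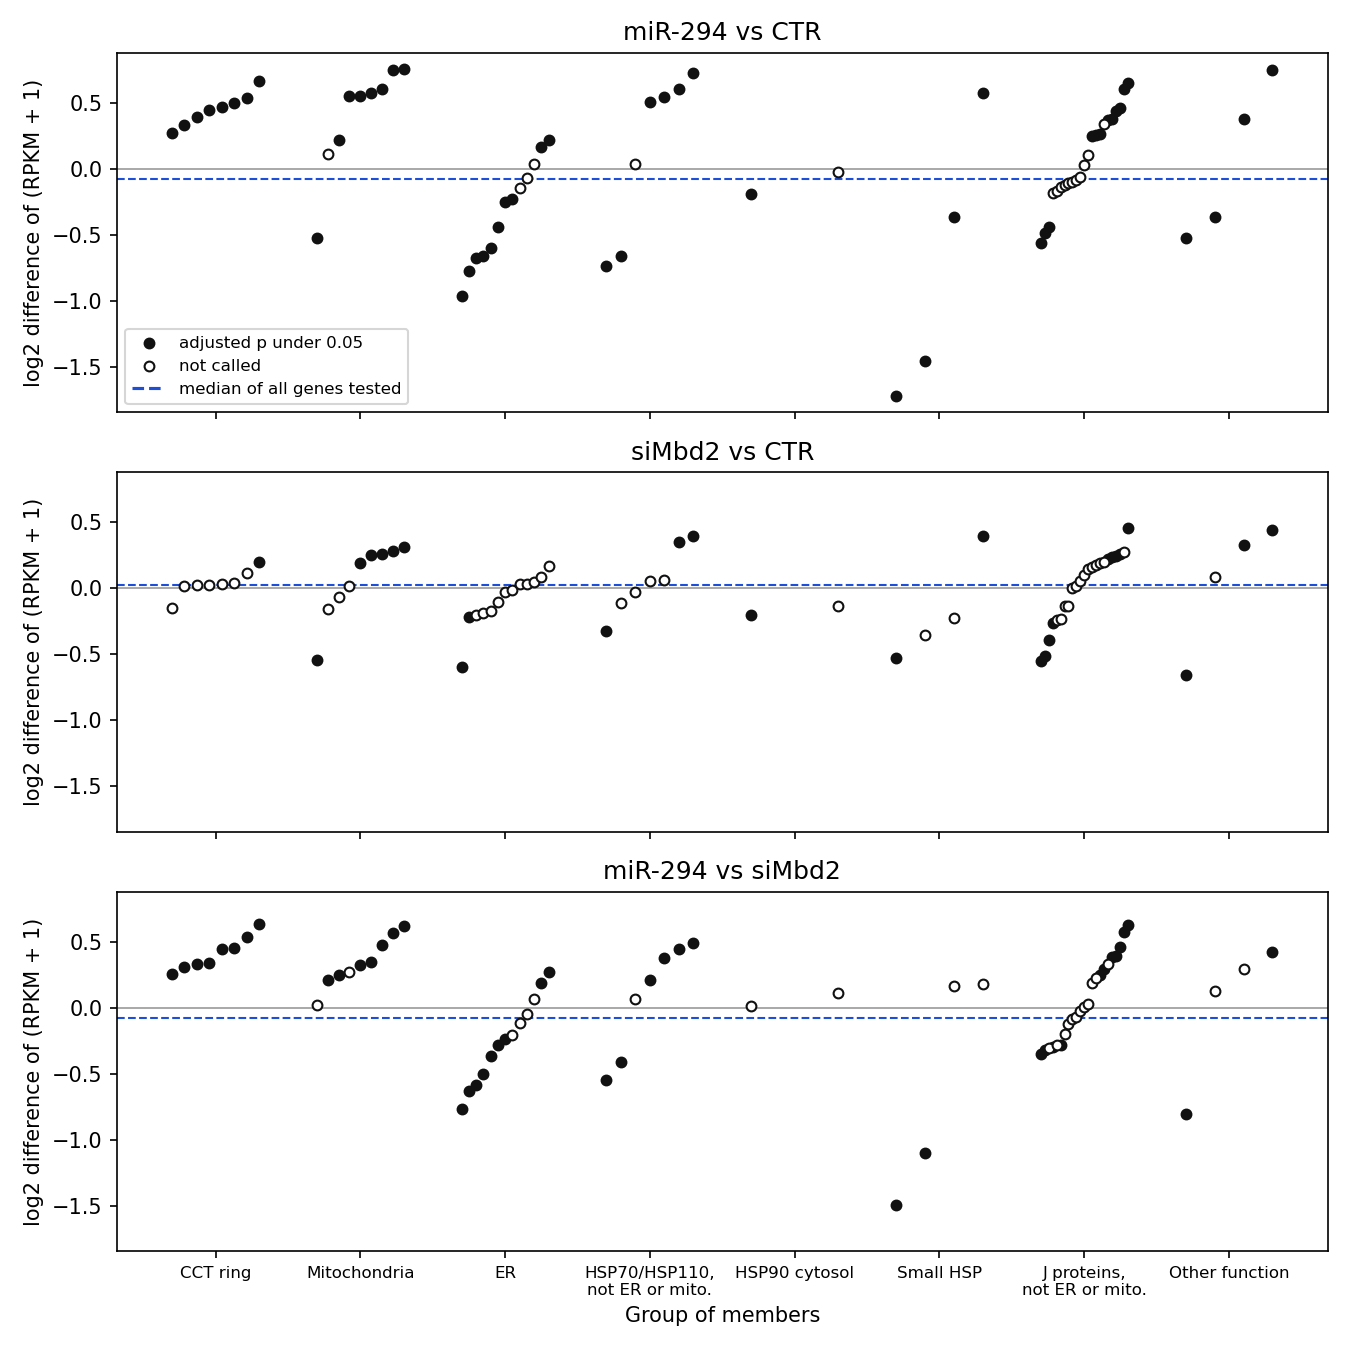
Log2 difference of (RPKM + 1) for each of the 70 tested members (1 point each, sorted within a group of members), in the comparisons of miR-294 with CTR, of siMbd2 with CTR and of miR-294 with siMbd2. Filled points have an adjusted p under 0.05 in limma and the dashed line is the median of all genes tested. In the top panel all 8 CCT ring genes lie above 0. There 8 of 13 ER genes are called below 0 (61.5%, against 36.8% of all genes). After quantile normalization Cct3, Dnajc7, Hspa5 and Hsp90b1 turn below 0.

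The members' part of the deposited signal was lowest with siMbd2, and the mixture within them shifted. Their summed RPKM was 2.84% and 2.98% of each CTR library's total, 2.94% and 2.92% with miR-294 and 2.65% and 2.74% with siMbd2. The 3 Hsp90 genes held 52.8% and 53.3% of the members' sum in CTR, 43.6% and 43.3% with miR-294 and 47.3% and 47.8% with siMbd2. The 3 groups did not overlap in that share. On the per-length scale, Hsp90aa1, Hsp90ab1 and Hspa8 were the most abundant members in every library.

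All 8 subunits of the CCT ring rose with miR-294, by 0.27 to 0.66 on the log2 scale, while 27.7% of all genes rose. After quantile normalization Cct3 turned to -0.02 and only 4 subunits were called. CCT is a barrel of stacked rings, each holding 8 different subunits, so its genes are read together. Tcp1, which encodes the alpha subunit, stood at 314 and 318 RPKM in CTR, 404 and 389 in the miR-294 libraries and 315 and 327 in the siMbd2 libraries. Its log2 difference from CTR was 0.33 (SE 0.053, adjusted p = 7.54e-04) with miR-294. Both miR-294 libraries lay above all 4 others, and the CTR and siMbd2 libraries overlapped.

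Cct6a had the steepest change of the ring, from 217 and 243 RPKM in CTR to 366 and 363 with miR-294, and it stood at 232 and 236 with siMbd2. That is 1.58 times the CTR mean, with a log2 difference of 0.66 (SE 0.063, adjusted p = 4.02e-05). Cct5 had 217 and 203 RPKM with CTR, 309 and 300.5 with miR-294 and 241 and 241 with siMbd2. It was the single ring gene called with siMbd2 against CTR (0.20, adjusted p = 0.0262), and that call was lost at equal summed RPKM (0.11, adjusted p = 0.090). Its 3 groups did not overlap and its log2 difference with miR-294 was 0.54 (SE 0.056, adjusted p = 6.30e-05). Cct2 had 245 and 255 RPKM with CTR, 349.6 and 342 with miR-294 and 254 and 254 with siMbd2, and Cct7, the least abundant ring subunit in all 6 libraries, 182 and 168 RPKM with CTR, 248 and 245 with miR-294 and 182 and 178 with siMbd2. Both were higher in the miR-294 libraries than in the others, by 0.47 and 0.49 (adjusted p = 9.00e-05 and 1.24e-04).

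Cct8 stood at 236 and 234 RPKM with CTR, 313 and 326 with miR-294 and 254 and 255 with siMbd2, with 0.44 (adjusted p = 1.17e-04) for miR-294 and 0.12 (adjusted p = 0.116) for siMbd2 against CTR. Cct4 stood at 221 and 219.7 RPKM with CTR, 285 and 292 with miR-294 and 202 and 195 with siMbd2. With siMbd2 it lay below both CTR libraries without a call as deposited (-0.15, adjusted p = 0.0543), while with miR-294 it lay above them (0.39, adjusted p = 2.44e-04). The siMbd2 difference of Cct4 was called lower with median-of-ratios size factors (-0.18, adjusted p = 0.0243), after quantile normalization (-0.25, adjusted p = 0.00669) and at equal summed RPKM (-0.24, adjusted p = 0.00648). Cct3 stood at 298 and 284 RPKM with CTR, 355 and 349 with miR-294 and 297 and 292 with siMbd2, the smallest difference of the ring with miR-294 (0.27, adjusted p = 0.00199). Against siMbd2 the whole ring was again higher with miR-294, by 0.26 to 0.64, with adjusted p from 6.74e-05 to 0.00349. After quantile normalization 5 of the 8 were still called in that comparison. Cct6b, a testis relative of Cct6a, stayed at 0.19 to 0.44 RPKM and was not tested.

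The subunits also drew closer to each other in RPKM with miR-294. The highest subunit, Tcp1, was 1.72 and 1.90 times the lowest, Cct7, in CTR, 1.63 and 1.59 times in miR-294 and 1.73 and 1.84 times in siMbd2. The coefficient of variation over the 8 genes was 18.2% and 19.5% in CTR, 15.1% and 14.0% with miR-294 and 17.95% and 19.4% with siMbd2. The miR-294 libraries were the lowest in both measures, with no test of this spread.

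**Figure D2:**
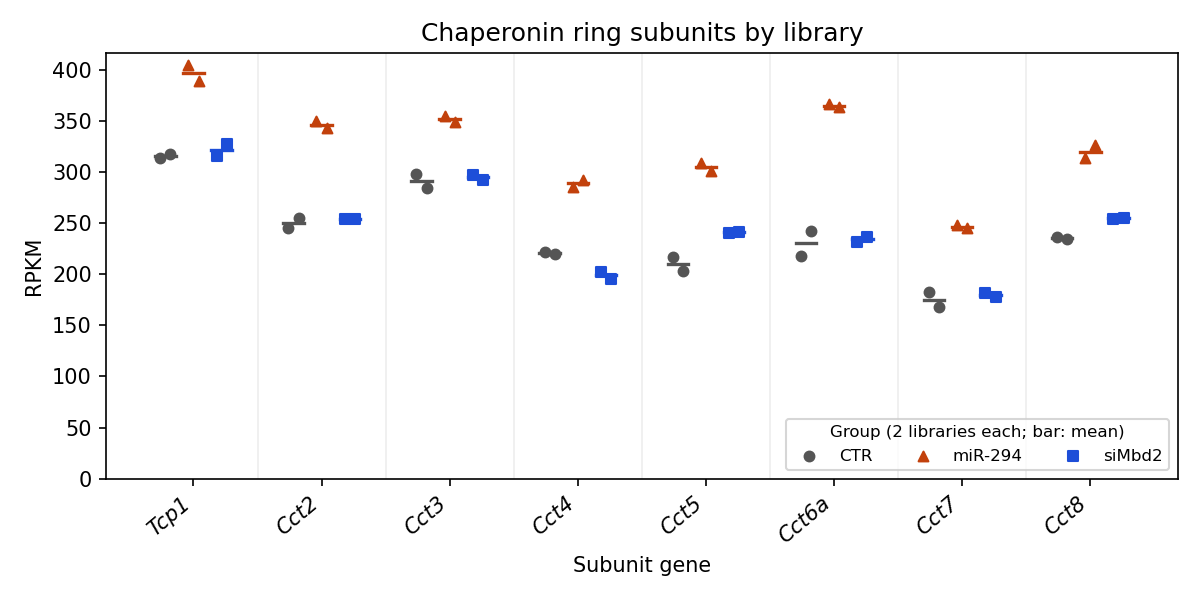
RPKM of the 8 CCT ring subunit genes in the 6 libraries (2 points a group, bar at the group mean). The miR-294 points lie above the CTR and siMbd2 points for every subunit, from 245 and 248 for Cct7 to 389 and 404 for Tcp1; on the quantile-normalized scale Cct3 was not above CTR.

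Prefoldin hands new actin and tubulin chains to CCT, and the phosducin-like proteins help CCT with some clients. Of 9 genes in a list of these helpers, 5 were higher with miR-294 than in CTR and none lower, with a median log2 difference of 0.29. As deposited 55.6% were thus higher, against 27.7% of all genes, while 36.8% of all genes were lower. The split was 4 higher and 2 lower at equal summed RPKM, where 2240 of all 11428 genes were higher and 5647 lower. With siMbd2, 4 were higher and 1 lower (44.4% and 11.1%, against 19.5% and 14.9% of all genes), with a median of 0.18. Pfdn6, a prefoldin subunit, had 65.8 and 59.0 RPKM with CTR, 132 and 131 with miR-294 and 85.3 and 82.7 with siMbd2. It rose in both comparisons, by 1.06 (SE 0.064, adjusted p = 4.96e-06) with miR-294 and 0.43 (SE 0.064, adjusted p = 0.00207) with siMbd2, and the 3 groups did not overlap. Pdcl, a phosducin-like gene, had 28.5 and 27.1 RPKM with CTR, 44.6 and 39.7 with miR-294 and 28.1 and 28.8 with siMbd2, a rise of 0.58 (adjusted p = 1.67e-04) with miR-294 against CTR. The prefoldin genes Pfdn2 and Pfdn5 rose by 0.53 and 0.33 (adjusted p = 8.70e-04 and 0.00158).

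Of the 9 mitochondrial members, 7 rose with miR-294 and 1 fell, with a median log2 difference of 0.55 against CTR. These shares of 77.8% and 11.1% stand against 27.7% and 36.8% of all genes. For siMbd2 the shares were 55.6% and 11.1%, against 19.5% and 14.9%. With siMbd2, 5 rose and 1 fell, with a median of 0.19, but no rise was called when either siMbd2 library was left out, and 1 was called at equal summed RPKM. Hspd1 (Hsp60) forms the mitochondrial chaperonin barrel and Hspe1 (Hsp10) its lid. Hspe1 stood at 292 and 318 RPKM in CTR, 519.8 and 508 in the miR-294 libraries and 345 and 350.3 in the siMbd2 libraries. It rose by 0.75 (SE 0.059, adjusted p = 1.53e-05) with miR-294 and by 0.19 (SE 0.059, adjusted p = 0.0386) with siMbd2, and the 3 groups did not overlap. Hspd1 stood at 379 and 416 RPKM in CTR, 595 and 586 in the miR-294 libraries and 469 and 474 in the siMbd2 libraries. It rose by 0.57 (SE 0.060, adjusted p = 6.91e-05) and 0.25 (SE 0.060, adjusted p = 0.0151), in the same order of groups.

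The ratio of Hspe1 to Hspd1 in RPKM was 0.771 and 0.765 in CTR, 0.874 and 0.866 with miR-294 and 0.735 and 0.739 with siMbd2, so lid and barrel changed by different amounts. These genes lie head to head on chromosome 1. By RefSeq (GRCm38.p6) Hspd1 spans chr1:55077833-55088243 on the minus strand and Hspe1 chr1:55088148-55091317 on the plus strand, so they overlap by 96 bases. The sources used here do not give whether reads were counted by strand, and reads from the overlap cannot be told apart. A heat shock element, searched as GAANNTTC, which reads alike on both strands, starts 84 bases before the Hspe1 start. RefSeq lists 2 starts for Hspd1. The element lies inside the Hspd1 span as counted from the outer start (position 55088243) and 139 bases before the inner start (position 55087932). It falls in a 5' UTR that GENCODE vM21 annotates for Hspd1, so its bases are not shown.

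Hspa9 (mortalin), the mitochondrial Hsp70 that pulls proteins through the inner membrane, had 297 and 308 RPKM with CTR, 444 and 444 with miR-294 and 288 and 289.6 with siMbd2. It rose by 0.55 (SE 0.051, adjusted p = 3.53e-05) with miR-294. As deposited its log2 difference with siMbd2 was -0.07 (adjusted p = 0.346), with both libraries below CTR. With siMbd2, Hspa9 was called lower after quantile normalization (-0.16, adjusted p = 0.0298) and at equal summed RPKM (-0.15, adjusted p = 0.0484). Dnajc19, a J protein of the import motor that works with mortalin, had 22.9 and 24.2 RPKM with CTR, 38.6 and 42.0 with miR-294 and 29.9 and 27.7 with siMbd2. Its 3 groups did not overlap, with 0.75 (SE 0.072, adjusted p = 4.31e-05) for miR-294 and 0.28 (SE 0.072, adjusted p = 0.0189) for siMbd2. Dnajc11, a J protein tied to the cristae junctions, had 32.4 and 32.1 RPKM with CTR, 52.0 and 47.0 with miR-294 and 38.9 and 38.7 with siMbd2, with 0.60 (adjusted p = 8.05e-05) and 0.26 (adjusted p = 0.017). Dnajc15, a related J protein of the import motor, had 20.7 and 18.1 RPKM with CTR, 28.8 and 28.8 with miR-294 and 24.9 and 23.4 with siMbd2, with 0.55 (adjusted p = 3.30e-04) and 0.31 (adjusted p = 0.017). In all 3 genes the order was CTR, siMbd2, miR-294.

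Dnaja3, the mitochondrial J protein of the DNAJA family, had 31.6 and 29.2 RPKM with CTR, 35.9 and 35.1 with miR-294 and 30.2 and 31.2 with siMbd2, a rise of 0.22 (adjusted p = 0.0156) with miR-294 that kept no call at equal summed RPKM. Dnajc4 was the mitochondrial member that fell, from 9.59 and 8.06 RPKM in CTR to 6.09 and 5.55 with miR-294 and 5.98 and 5.47 with siMbd2. Its differences from CTR were -0.52 (adjusted p = 0.00204) and -0.54 (adjusted p = 0.00513). Dnajc30 was not called in any comparison as deposited. The 11 measured genes of a list on mitochondrial folding and quality control gave 4 higher and 1 lower with miR-294. That is 36.4% and 9.1%, against 27.7% and 36.8% of all genes. Their median of 0.07 turned to -0.08 at equal summed RPKM. Grpel1, the exchange factor of mortalin, rose by 0.47 (adjusted p = 7.86e-04) with miR-294 and 0.58 (adjusted p = 0.00127) with siMbd2, and the protease subunit Clpp by 0.43 (adjusted p = 0.00191) and 0.44 (adjusted p = 0.00501). Lonp1, the matrix protease, rose by 0.33 (adjusted p = 0.00951) with miR-294, and Hscb, the J protein of iron-sulfur cluster assembly, fell by 0.40 with miR-294 and by 0.45 with siMbd2 (adjusted p = 0.0119 and 0.0157).

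The share of summed RPKM from genes encoded on mitochondrial DNA was lowest with miR-294, while siMbd2 lay between the CTR libraries. It was 3.03% and 4.13% in CTR, 2.52% and 2.68% with miR-294 and 3.27% and 3.38% with siMbd2. Its part in the rise of the mitochondrial members was not tested.

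**Figure D3:**
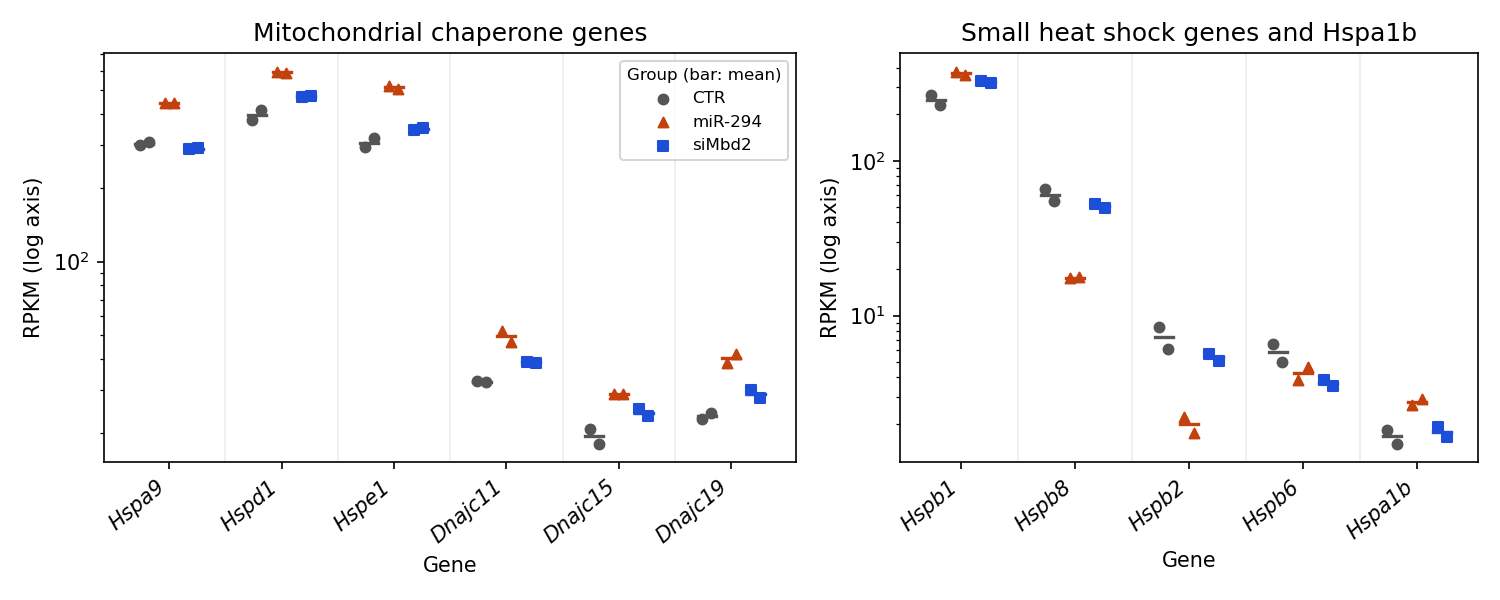
RPKM on a log axis in the 6 libraries (2 points a group, bar at the group mean). On the left are 6 of the 9 mitochondrial members, and on the right 4 small heat shock genes with Hspa1b. Not shown are Dnaja3 (rose with miR-294), Dnajc30 (not called) and Dnajc4 (fell). The miR-294 points are highest for the 6 mitochondrial genes shown, all of them called higher. For Hspb8 the miR-294 points lie at 17.4 and 17.7 RPKM against 55.3 and 65.3 in CTR.

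Chaperone genes of the ER moved the other way. Of 13, 8 fell with miR-294 against CTR and 2 rose (61.5% and 15.4%, against 36.8% and 27.7% of all genes). The median log2 difference was -0.25, and it stayed below 0 under every scaling. With siMbd2 none rose and 2 fell (Dnajb14, Dnajc14), with a median of -0.03. The 15.4% that fell with siMbd2 lies near the 14.9% of all genes. The 2 that rose with miR-294 were the abundant chaperones of the ER, Hspa5 and Hsp90b1, and both turned below 0 after quantile normalization (-0.11 and -0.14, not called). Hspa5 (BiP), the ER Hsp70, had 234 and 235 RPKM with CTR, 277 and 267 with miR-294 and 241 and 238 with siMbd2, a log2 difference of 0.21 (SE 0.051, adjusted p = 0.00592) with miR-294. Hsp90b1 (Grp94), the ER Hsp90, had 217 and 242 RPKM with CTR, 258 and 256 with miR-294 and 215 and 211 with siMbd2, with 0.16 (SE 0.062, adjusted p = 0.0448). At equal summed RPKM neither was called (0.057 and 0.0068). Leaving out miR-294 replicate 1 also ended the Hspa5 call (0.19, adjusted p = 0.081), and leaving out any library but CTR replicate 2 ended that of Hsp90b1 (adjusted p up to 0.18).

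The J proteins of the ER gave 7 lower and none higher of 10 with miR-294, so 70.0% were lower, against 36.8% of all genes. Dnajb9, which binds BiP and unfolded chains for degradation, had 16.8 and 21.4 RPKM with CTR, 10.6 and 10.7 with miR-294 and 15.8 and 17.3 with siMbd2. Its log2 difference was -0.78 (SE 0.11, adjusted p = 3.16e-04) with miR-294, and its siMbd2 libraries overlapped the CTR libraries. Dnajc3, a lumenal co-chaperone of BiP and an inhibitor of the kinase PERK, had 14.7 and 15.4 RPKM with CTR, 8.82 and 9.27 with miR-294 and 13.3 and 13.2 with siMbd2. Its log2 difference was -0.68 (SE 0.072, adjusted p = 7.30e-05) with miR-294 and -0.17 (adjusted p = 0.0969) with siMbd2, both groups lying below CTR. Dnajb14, anchored in the ER membrane, had 5.08 and 5.50 RPKM with CTR, 2.15 and 2.29 with miR-294 and 3.17 and 3.15 with siMbd2, so that both treatments lay below CTR without overlap (-0.97, SE 0.087, adjusted p = 3.15e-05, and -0.60, SE 0.087, adjusted p = 0.00186). Dnajc16 had 5.55 and 4.56 RPKM with CTR, 3.27 and 2.71 with miR-294 and 5.74 and 5.78 with siMbd2, low with miR-294 alone (-0.60, SE 0.11, adjusted p = 0.00152).

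Hspa13, an Hsp70-like protein of the microsomes, fell likewise, from 8.17 and 9.34 RPKM in CTR to 5.09 and 5.25 with miR-294, and stood at 8.69 and 8.44 with siMbd2 (-0.66, SE 0.088, adjusted p = 2.43e-04). Dnajc1, Dnajc10 and Dnajc18 fell with miR-294, with log2 differences of -0.44, -0.25 and -0.23 (adjusted p = 0.00143, 0.0118 and 0.0477). Dnajc10 encodes a disulfide reductase of the ER. Dnajb11, the abundant lumenal J protein, was not called, with 37.8 and 36.2 RPKM with CTR, 38.1 and 37.7 with miR-294 and 38.9 and 39.8 with siMbd2. Dnajb12 and Dnajc14 were not called with miR-294 either. Against siMbd2, 7 ER members were lower with miR-294 and 2 higher (Hspa5 and Hsp90b1), with a median of -0.24. That is 53.8% and 15.4%, against 35.5% and 21.9% of all genes in that comparison. The Hspa5 difference there, 0.18 (adjusted p = 0.0143), turned to -0.065 after quantile normalization and was not called at equal summed RPKM (0.11). That of Hsp90b1, 0.27 (adjusted p = 0.00569), was not called after quantile normalization (0.040).

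**Figure D4:**
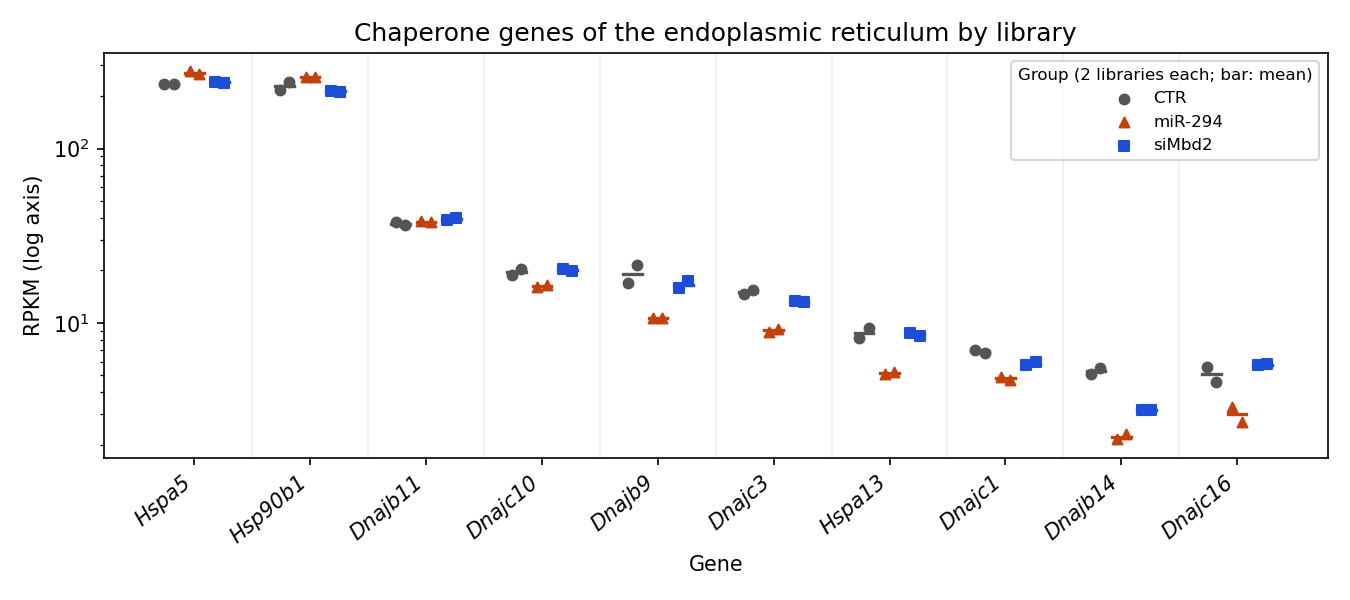
RPKM on a log axis of 10 of the 13 ER members in the 6 libraries (2 points a group, bar at the group mean). Not shown are Dnajb12 and Dnajc14 (not called with miR-294) and Dnajc18 (fell). The miR-294 points are the lowest for 7 genes, from Dnajc10 to Dnajc16, and the highest for Hspa5 and Hsp90b1, whose order against CTR turned after quantile normalization.

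Each tested gene's longest 3' UTR in GENCODE vM21 (GRCm38) was searched for matches to the seed of the mimic. A microRNA finds its targets mainly through bases 2 to 8, in capitals in the mature sequence from RefSeq (chr7:3220691-3220712, plus strand):
miR-294-3p: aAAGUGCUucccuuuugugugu
A site is AGCACTTA, AGCACTT or GCACTTA on the strand of the gene. Sites occurred in 20.9% of the 10802 tested genes with a 3' UTR and in 13 of 69 members (18.8%). Among members, 6 of the 20 lower ones (30%), 5 of the 32 higher ones (15.6%) and 2 of the 17 not called (11.8%) held a site. Median 3' UTR length differed between these sets, at 1517, 616 and 1192 bases, against 1142 for all genes. All 5 ER members with a site were among the 8 ER members that fell (Dnajb14, Dnajb9, Dnajc16, Dnajc18, Hspa13). Outside the ER, 1 of the 8 members with a site fell (Dnajc27) and 5 rose. Over all genes tested, 36.8% fell and 27.7% rose. Calls were not counted for other genes with a site, and a link of site and call was not tested.

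The sites are shown for 4 of the 5 ER genes that fell and held one (all but Dnajc18), beside the higher gene Dnaja1 and the lower cytosolic gene Dnajc27, with the match in capitals:
Dnajb14, chr3:137912654-137912661, plus strand: cacttagactgAGCACTTAgtggtcatgtc
Dnajb14, chr3:137914950-137914956, plus strand: aggaaacccagAGCACTTtttattatttat
Dnajc16, chr4:141762622-141762629, minus strand: tttaagatggcAGCACTTAgtcctacccac
Dnajc16, chr4:141760830-141760836, minus strand: ctcagcggtaaAGCACTTgcctagggagta
Dnajb9, chr12:44206152-44206158, minus strand: gtcactcttttGCACTTAtctttatctaga
Hspa13, chr16:75757512-75757518, minus strand: ggtagccatccGCACTTActagtctggaaa
Hspa13, chr16:75756534-75756540, minus strand: gaaaaagatcaAGCACTTcagcttcccaaa
Dnajc27, chr12:4109348-4109354, plus strand: cagccttcgtcAGCACTTtagagcgtcctc
Dnaja1, chr4:40737106-40737113, plus strand: tcccccttatgAGCACTTAtggtaaagaaa
Coordinates are those of the match. Dnajb14, Dnajc16 and Dnaja1 are the members with a match of 8 bases. Dnajb14 and Dnajc16, which were 0.42 and 0.59 times their CTR means, hold it beside a second site of 7 bases. Dnaja1, at 1.57 times its CTR mean, carries the same 8 bases near the end of its longest 3' UTR. A match is a description of sequence, and binding of the mimic was not measured.

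The unfolded protein response drives ER chaperones through the ER stress element, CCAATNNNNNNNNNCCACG, where N is any base. It was searched on both strands in 300 bases around each RefSeq start (250 before, 50 after). The element stood in 3 of 74 windows of tested members (4.05%) and in 0.144% of the 11123 windows of all tested genes, and it begins with the CCAAT box, so each such window also counts as holding that box. The box stood in 39.2% of member windows and 38.0% of all. Windows matched for 11 of the 13 ER members. The stretches with the element in capitals are:
Hspa5, chr2:34772020-34772049, plus strand: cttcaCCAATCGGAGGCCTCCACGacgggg
Hsp90b1, chr10:86705632-86705661, minus strand: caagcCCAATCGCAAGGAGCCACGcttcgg
Hsp90b1, chr10:86705527-86705556, minus strand: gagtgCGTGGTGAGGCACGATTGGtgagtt
Dnajc3, chr14:118937822-118937851, plus strand: cacaaCCAATCAGCGCCAACCACGacccgg
The second Hsp90b1 stretch carries it on the opposite strand. The Hspa5 stretch lies inside the span that GENCODE vM21 gives the gene, so it may be transcribed. Hspa5 and Hsp90b1 rose with miR-294 as deposited and Dnajc3 fell. After quantile normalization all 3 lay below 0, at -0.11, -0.14 and -0.53, with Dnajc3 alone called.

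Of 16 other genes of ER folding and of the unfolded protein response, 3 were higher and 7 lower with miR-294 (18.8% and 43.8%, against 27.7% and 36.8% of all genes). With median-of-ratios size factors 4 were higher and 2 lower, against 3684 and 3772 of all 11428 genes. Serpinh1, the collagen chaperone, had 68.8 and 58.8 RPKM with CTR, 29.5 and 27.4 with miR-294 and 47.2 and 43.1 with siMbd2, a fall with both treatments (-1.13, adjusted p = 1.41e-05, and -0.49, adjusted p = 0.00412). Ddit3 (Chop), a stress transcription factor, had 17.4 and 15.9 RPKM with CTR, 26.0 and 28.9 with miR-294 and 12.03 and 12.8 with siMbd2, higher with miR-294 (0.69, adjusted p = 1.28e-04) and lower with siMbd2 (-0.39, adjusted p = 0.00787). Sdf2l1, which works with BiP, rose by 0.58 (adjusted p = 0.00118) with miR-294, and Ern1, the stress sensor, had -0.46 (adjusted p = 0.00632).

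In the cytosol the leading Hsp70, Hspa8, rose with miR-294, while its exchange factors were split. The Hsp110 genes Hspa4 and Hsph1 rose and Hspa4l fell. Over the Hsp70 family 4 of 7 tested members rose with miR-294 and 2 fell (57.1% and 28.6%, against 27.7% and 36.8% of all genes). The family's median of 0.21 turned to -0.11 after quantile normalization. Hspa8 (Hsc70), the constitutive Hsp70, had 981 and 871 RPKM with CTR, 1406 and 1404 with miR-294 and 1188 and 1249 with siMbd2. It rose by 0.60 (SE 0.070, adjusted p = 1.17e-04) with miR-294 and by 0.40 (SE 0.070, adjusted p = 0.00403) with siMbd2, and the groups did not overlap. Between the treatments Hspa8 was higher with miR-294 (0.21, adjusted p = 0.0339), which turned to -0.0066 after quantile normalization.

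Hspa4, an Hsp110 exchange factor, had 177 and 207 RPKM with CTR, 275 and 284 with miR-294 and 197 and 201 with siMbd2, a rise of 0.54 (SE 0.075, adjusted p = 2.96e-04) with miR-294 that lost its call after quantile normalization (0.23, adjusted p = 0.0554). Hsph1 had 47.2 and 49.6 RPKM with CTR, 83.1 and 78.4 with miR-294 and 58.6 and 65.7 with siMbd2, with 0.73 (SE 0.071, adjusted p = 4.63e-05) for miR-294 and 0.35 (SE 0.071, adjusted p = 0.00693) for siMbd2 and no overlap of the 3 groups. Hspa4l, the third Hsp110 gene and far less abundant, had 4.01 and 3.92 RPKM with CTR, 1.82 and 2.15 with miR-294 and 3.19 and 2.75 with siMbd2, lower in both treatments (-0.74, adjusted p = 2.77e-04, and -0.32, adjusted p = 0.0364). Hspa14, an Hsp70 that acts at the ribosome, did not pass the test in any comparison as deposited, with 99.4 to 107 RPKM in all 6 libraries. Hspa2, an Hsp70 known from germ cells, fell by 0.66 with miR-294 (adjusted p = 8.22e-04), from 3.87 and 3.65 to 2.23 and 1.80 RPKM.

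The heat-inducible Hsp70 genes were near the floor of the table. Hspa1b had 1.83 and 1.49 RPKM with CTR, 2.66 and 2.88 with miR-294 and 1.91 and 1.64 with siMbd2, a log2 difference of 0.51 (adjusted p = 0.00276) with miR-294. Hspa1a was below the level tested, at 0.52 and 0.51 RPKM with CTR, 1.40 and 1.43 with miR-294 and 0.94 and 0.87 with siMbd2. Its miR-294 libraries lay above the others. Hspa1a and Hspa1b are near-identical copies on chromosome 17, and the sources used here do not give how reads that fit both were assigned. Reads from processed pseudogenes, which Hspa8 and other abundant members have, raise the same uncertainty. Hspa8 was 488 to 762 times as abundant as Hspa1b in RPKM.

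Of 13 Hsp70 co-chaperones, 4 were higher and 5 lower with miR-294, and these shares of 30.8% and 38.5% lie near those of all genes (27.7% and 36.8%). Bag2 had 4.14 and 4.20 RPKM with CTR, 2.08 and 2.33 with miR-294 and 6.07 and 6.57 with siMbd2, lower with miR-294 (-0.69, adjusted p = 2.08e-04) and higher with siMbd2 (0.50, adjusted p = 0.00421). Sil1, the exchange factor of BiP, had 16.1 and 13.9 RPKM with CTR, 9.23 and 8.40 with miR-294 and 8.52 and 7.15 with siMbd2, lower in both (-0.70, adjusted p = 4.96e-04, and -0.86, adjusted p = 0.00102). Bag5 fell by 0.43 with miR-294 (adjusted p = 0.00243), and Grpel1 stands in this list too.

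The cytosolic Hsp90 genes departed from the rise of Hspa8, Hspa4 and Hsph1. Hsp90aa1, the inducible cytosolic Hsp90, was the most abundant member, with 4257 and 4312 RPKM in CTR, 3768 and 3751 in the miR-294 libraries and 3659.5 and 3788 in the siMbd2 libraries. Its mean was 0.88 times the CTR mean with miR-294 and 0.87 times with siMbd2, with log2 differences of -0.19 (SE 0.061, adjusted p = 0.0249) and -0.20 (SE 0.061, adjusted p = 0.0344). All 4 treated libraries lay below both CTR libraries. With median-of-ratios size factors the miR-294 difference was -0.12 (adjusted p = 0.076). Leaving out either miR-294 library or either siMbd2 library ended both calls (adjusted p up to 0.18 for miR-294 and 0.22 for siMbd2). Hsp90ab1, the constitutive form, had 2277 and 2258 RPKM in CTR, 2282 and 2169.8 in the miR-294 libraries and 2022 and 2099.6 in the siMbd2 libraries, with no call as deposited (-0.03, adjusted p = 0.707, and -0.14, adjusted p = 0.111). The result for Hsp90ab1 depends on the scaling. Its miR-294 difference was 0.043 with median-of-ratios size factors (not called), but it was called lower after quantile normalization (-0.35, adjusted p = 7.24e-04) and at equal summed RPKM (-0.19, adjusted p = 0.0101). Its siMbd2 difference was called lower under all 3 of these scalings, at -0.17, -0.28 and -0.23 (adjusted p = 0.0344, 0.00658 and 0.00919). The ratio of Hsp90aa1 to Hsp90ab1 was 1.87 and 1.91 in CTR, 1.65 and 1.73 with miR-294 and 1.81 and 1.80 with siMbd2.

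Co-chaperones of Hsp90 set its ATP cycle and choose its clients. Of 14, 10 were higher and 2 lower with miR-294 against CTR (71.4% and 14.3%, against 27.7% and 36.8% of all genes). The median was 0.29, and 6 were higher and 2 lower at equal summed RPKM. At that scaling 2240 of all 11428 genes were higher and 5647 lower. With siMbd2, 3 were higher and 1 lower (21.4% and 7.1%, against 19.5% and 14.9% of all genes). The siMbd2 median of 0.04 turned to -0.05 at equal summed RPKM. Fkbp5, an immunophilin of steroid receptor complexes, had 35.6 and 32.9 RPKM with CTR, 66.4 and 64.3 with miR-294 and 37.5 and 35.9 with siMbd2, a rise of 0.91 (SE 0.063, adjusted p = 9.35e-06) with miR-294. Ahsa1, the activator of the Hsp90 ATPase, had 121 and 115 RPKM with CTR, 199 and 196 with miR-294 and 141 and 139 with siMbd2, with 0.74 (adjusted p = 1.15e-05) for miR-294 and 0.24 (adjusted p = 0.0101) for siMbd2. Ppid, a cyclophilin, had 76.6 and 92.8 RPKM with CTR, 136 and 146 with miR-294 and 81.5 and 77.8 with siMbd2, with 0.73 (adjusted p = 1.48e-04) for miR-294. The client-loading factor Unc45a fell, from 24.3 and 19.4 to 15.7 and 15.5 RPKM (-0.46, adjusted p = 0.00437). The list thus held 10 higher genes beside cytosolic Hsp90 genes that were not called higher.

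The widest changes among the members were in the small heat shock genes, and they ran in both directions. Of the 4 tested, 3 fell with miR-294 and 1 rose (75.0% and 25.0%, against 36.8% and 27.7% of all genes). Hspb8 works with Bag3 to send misfolded proteins to autophagy, and it lies at chr5:116408491-116422864 on the minus strand (GENCODE vM21, GRCm38). It had 65.3 and 55.3 RPKM in CTR, 17.4 and 17.7 in the miR-294 libraries and 52.4 and 49.9 in the siMbd2 libraries. The mean was 60.3 ± 7.09 RPKM in CTR and 17.5 ± 0.20 with miR-294 (SD, n = 2), 0.29 times the CTR mean, with a log2 difference of -1.72 (SE 0.082, adjusted p = 2.30e-06). Both miR-294 libraries lay far below the other 4, and the siMbd2 libraries lay just below CTR without a call as deposited (-0.23, adjusted p = 0.0602). The siMbd2 difference of Hspb8 was called lower with median-of-ratios size factors (-0.25), after quantile normalization (-0.34) and at equal summed RPKM (-0.31), with adjusted p = 0.0238, 0.00965 and 0.00847. Hspb2, known from muscle, had 8.41 and 6.09 RPKM with CTR, 2.23 and 1.74 with miR-294 and 5.67 and 5.10 with siMbd2, 0.27 times the CTR mean with miR-294 (-1.46, SE 0.14, adjusted p = 4.94e-05). By RefSeq, Hspb2 (chr9:50751072-50752354) lies within the span of Cryab (chr9:50745951-50756636), so reads of these genes may not have been told apart.

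Hspb1, the abundant small heat shock gene, rose instead, with 266 and 228 RPKM in CTR, 377 and 357 in the miR-294 libraries and 328 and 320.1 in the siMbd2 libraries. Its log2 differences were 0.57 (SE 0.076, adjusted p = 2.54e-04) with miR-294 and 0.39 (SE 0.076, adjusted p = 0.00602) with siMbd2. Hspb1 was 4.08 and 4.13 times as abundant as Hspb8 in CTR, 21.6 and 20.2 times in miR-294 and 6.26 and 6.41 times in siMbd2. Hspb6 had 6.56 and 5.01 RPKM with CTR, 3.86 and 4.63 with miR-294 and 3.86 and 3.50 with siMbd2, lower in both treatments (-0.37, adjusted p = 0.0335, and -0.53, adjusted p = 0.0149). Hspb9 was below the level tested. None of the 3 small heat shock genes that fell had a miR-294 site in its longest 3' UTR.

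J proteins outside ER and mitochondria made up 23 tested members, of which 9 rose and 3 fell with miR-294, and 5 rose and 4 fell with siMbd2. The 9 that rose with miR-294 are 39.1%, against 27.7% of all genes, while 36.8% of all genes fell. The siMbd2 shares, 21.7% and 17.4%, lie near the 19.5% and 14.9% of all genes. Dnaja1, a partner of Hsc70, had 83.7 and 97.5 RPKM with CTR, 144 and 140.3 with miR-294 and 102 and 115 with siMbd2. It rose by 0.65 (SE 0.086, adjusted p = 2.31e-04) with miR-294 and by 0.26 (SE 0.086, adjusted p = 0.0478) with siMbd2, the second of which was lost at equal summed RPKM. Dnaja2, a close relative, had 70.2 and 79.5 RPKM with CTR, 76.2 and 75.8 with miR-294 and 79.0 and 81.2 with siMbd2 and was not called. Dnajb1, a partner of the inducible Hsp70, had 19.5 and 17.9 RPKM with CTR, 20.2 and 20.1 with miR-294 and 21.2 and 21.8 with siMbd2 and was not called either. Dnajb6, which blocks aggregation, had 104 and 113 RPKM with CTR, 131 and 129 with miR-294 and 107 and 112 with siMbd2, a rise of 0.26 (adjusted p = 0.00471) with miR-294. The call for Dnajb6 ended after quantile normalization (0.060, adjusted p = 0.478) and at equal summed RPKM (0.11, adjusted p = 0.187).

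Dnajc2, which sits on the ribosome with Hspa14, had 52.4 and 58.3 RPKM with CTR, 83.5 and 85.0 with miR-294 and 60.5 and 61.8 with siMbd2, a rise of 0.60 (SE 0.064, adjusted p = 7.68e-05) with miR-294 against 0.14 (adjusted p = 0.117) with siMbd2. Dnajc21, tied to ribosome assembly, had 82.6 and 90.3 RPKM with CTR, 79.8 and 78.5 with miR-294 and 85.6 and 87.3 with siMbd2 and was not called. Dnajc7, which binds both Hsp70 and Hsp90, had 130.03 and 126 RPKM with CTR, 146 and 158 with miR-294 and 152 and 151 with siMbd2, higher in both treatments as deposited (0.25, adjusted p = 0.00543, and 0.24, adjusted p = 0.0145), while the miR-294 difference was -0.0019 after quantile normalization. Dnajc8, tied to splicing, had 158 and 153 RPKM with CTR, 199.9 and 202 with miR-294 and 130.37 and 129 with siMbd2. It rose with miR-294 (0.37, SE 0.051, adjusted p = 3.07e-04) and fell with siMbd2 (-0.26, SE 0.051, adjusted p = 0.00584), and its direct difference between the treatments, 0.63, was the second largest among higher members (adjusted p = 2.94e-05). After quantile normalization the rise of Dnajc8 with miR-294 was not called (0.12, adjusted p = 0.0577).

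The other cytosolic or unassigned J proteins that rose with miR-294 were Dnajb5, Dnajb13, Dnajc5 and Dnajc24, by 0.25 to 0.46. Those that fell were Dnaja4, Dnajb2 and Dnajc27, by 0.57, 0.44 and 0.49. With siMbd2, Dnajc9, a histone co-chaperone, rose from 25.7 and 24.0 to 29.6 and 29.1 RPKM (0.23, adjusted p = 0.0241). Dnajb4, Dnajc17 and Dnajc22 fell with siMbd2, by 0.51, 0.39 and 0.55 (adjusted p = 0.0159, 0.0067 and 0.00382). These 3 were not called with miR-294 against CTR.

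The transcription factors that drive heat shock genes were not called with miR-294. Hsf1, the main heat shock factor, had 17.2 and 13.2 RPKM with CTR, 16.4 and 15.2 with miR-294 and 15.3 and 15.7 with siMbd2. Hsf2 had 11.9 and 13.6 RPKM with CTR, 12.2 and 12.5 with miR-294 and 11.8 and 12 with siMbd2, and the groups of both genes overlapped. Hsbp1, which binds Hsf1, had 40.5 and 40.9 RPKM with CTR, 36.2 and 37.3 with miR-294 and 53.8 and 50.1 with siMbd2, a rise with siMbd2 (0.34, adjusted p = 0.00394). Hsf4 and Hsf5 were below the level tested. These are mRNA levels, and the activity of a heat shock factor was not measured.

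Heat shock elements (GAANNTTC) stood in 14 of 74 member windows (18.9%), against 5.63% of the windows of all tested genes. The E-box CACGTG stood in 10.8% of member windows and 10.2% of all. Windows matched for 56 of the 70 tested members, of which 27 were higher with miR-294 and 16 lower. The other members were not searched, Hsp90aa1 and Hsp90ab1 among them. Of the 12 members with a heat shock element, 8 were called higher with miR-294 and 4 lower. Of all tested members 47.1% were higher and 28.6% lower, and of all genes 27.7% and 36.8%. Calls were not counted for other genes with the element, and a link of element and call was not tested. The stretches below are shown for 6 of these 12 members, 4 that rose and 2 that fell, with the element in capitals. Each shown element stands before a RefSeq start of its gene. Those of Cct2, Dnaja1, Dnaja4 and Hspb6 lie inside the span that GENCODE vM21 gives the gene, so they may be transcribed. The elements of Hspb8 and Hsph1 stand after the RefSeq start, in transcribed bases, and are not shown. Nor are those of Dnajb6, Dnajc27, Hspd1 and Hspe1 or a second one of Dnaja4.
Hspb1, chr5:135887791-135887820, plus strand: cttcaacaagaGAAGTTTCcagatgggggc
Hspb1, chr5:135887811-135887840, plus strand: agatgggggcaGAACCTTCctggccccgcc
Dnaja1, chr4:40722333-40722362, plus strand: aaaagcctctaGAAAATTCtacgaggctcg
Cct2, chr10:117063399-117063428, minus strand: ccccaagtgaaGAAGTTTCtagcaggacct
Hspa1b, chr17:34959324-34959353, minus strand: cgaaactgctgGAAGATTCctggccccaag
Hspb6, chr7:30553170-30553199, plus strand: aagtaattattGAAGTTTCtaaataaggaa
Dnaja4, chr9:54699458-54699487, plus strand: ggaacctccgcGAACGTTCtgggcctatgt
Hspb1, Dnaja1, Cct2 and Hspa1b rose with miR-294 as deposited, and Hspb6 and Dnaja4 fell. A match says only that these letters are in the window.

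Among the members, 4 share the name without belonging to a chaperone family. Hspg2 (perlecan), a basement membrane proteoglycan, had 57.2 and 49.3 RPKM with CTR, 42.7 and 39.3 with miR-294 and 71.5 and 73.2 with siMbd2. It fell with miR-294 (-0.37, SE 0.080, adjusted p = 0.00379) and rose with siMbd2 (0.44, SE 0.080, adjusted p = 0.00455), and the 3 groups did not overlap. Hspbap1, which binds Hspb1, had 12.2 and 11.98 RPKM with CTR, 21.3 and 20.7 with miR-294 and 15.4 and 15.4 with siMbd2, a rise in both (0.75, SE 0.066, adjusted p = 2.74e-05, and 0.32, SE 0.066, adjusted p = 0.00705). Hspb11 (Ift25), a part of the ciliary transport complex, had 9.59 and 10 RPKM with CTR, 5.84 and 7.20 with miR-294 and 6.46 and 5.29 with siMbd2, a fall in both (-0.53, adjusted p = 0.00403, and -0.66, adjusted p = 0.00413). Hspbp1, an exchange factor of Hsp70, had 23.2 and 17.5 RPKM with CTR, 25.7 and 27.2 with miR-294 and 21.8 and 21.1 with siMbd2, with 0.37 (adjusted p = 0.0193) for miR-294.

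The 9 members under a mean of 1 RPKM were Cct6b, Cct8l1, Dnajb3, Dnajc28, Hspa12a, Hspa12b, Hspa1a, Hspa1l and Hspb9. Their depth in reads is unknown, and no test was made on them as deposited. Dnajb3, a testis J protein, was listed at 0.24 and 0.59 RPKM with CTR, 1.30 and 1.68 with miR-294 and 0.42 and 0.54 with siMbd2. Cct8l1 was listed at 0.73 and 0.66 RPKM with CTR, 0.37 and 0.39 with miR-294 and 0.34 and 0.41 with siMbd2. The symbols Hspb3 and Hspb7 were not among the entries analysed here.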

How the data were processed

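Total RNA was made into paired-end libraries, per the labels' protocols. The authors deposited 1 RPKM value per gene and library, to 2 decimals, and a fold column for each treatment, a ratio over the controls (called mock there), per the file headers. Recomputed as ratios of group means, the members' folds lay within 0.0145 of the deposited ratios. CASAVA 1.7, STAR 2.3.0, Cufflinks and the mm10 build are named in the submitters' processing notes; the sources used here do not give the annotation, strand use or treatment of multiply mapped reads. Values of 2 decimals showed no step of 1 read, so depth is unknown and no counting error is given.

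The scale of analysis was log2(RPKM + 1), which understates changes of low genes. The 11428 genes averaging 1 RPKM or more were fitted in limma 3.58.1 (R 4.3.3), with 1 model of 3 groups, a trended empirical Bayes step, 3 residual and 5.38 prior degrees of freedom, two-sided tests and Benjamini-Hochberg adjustment over all genes; a call is an adjusted p under 0.05, and rose, fell and changed refer to calls. With 2 libraries a group the smallest two-sided exact permutation p is 0.333, so calls rest on the spread shared across genes. The procedure was tested on simulated data. Alternatives changed the pseudocount (0.1), the filter, the scaling, the trend, the groups fitted, a replicate block and 1 library at a time.

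The members and lists were chosen with earlier results of these data known. Members named with all values are the CCT, Hsp90 and Hsp60/Hsp10 genes, the 3 most abundant of each other family, and called members with a log2 difference of at least 0.585 and 5 RPKM in the higher group, with up to 4 called genes of each of 6 pathway lists and every heat shock factor. Other members named with values were chosen after their values were seen. Promoters matched for 56 and 3' UTRs for 69 of the 70 tested members. RefSeq promoters and the miRNA are on GRCm38.p6, read with Python 3.11.15 and pandas 2.3.3. Protein sequences were not used here.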

Additional observations from a re-analysis of the deposited data

How the results depend on the processing

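Of the log2 differences of the named members under the alternatives, 1675 kept their direction and their side of the threshold and 65 changed sign. Among the rest, 123 lost a call and 60 gained one. A sign change was counted as such whether or not a call was also lost or gained, and its cause was not tested. The counts of called members stayed within 1.5 times of those reported under every alternative except the following. With only genes of at least 5 RPKM, 12 members were lower in miR-294 vs CTR, 6 in siMbd2 vs CTR and 10 in miR-294 vs siMbd2; fewer members are tested there. In siMbd2 vs CTR, 8 were higher after quantile normalization and 7 at equal summed RPKM, where 18 were lower. With 1 library left out, siMbd2 vs CTR gave 2 to 21 higher and 3 to 15 lower. Leaving out a replicate leaves a group of 1 library, which is then assumed to vary like the others. The replicate numbers were checked for pairing, as same-numbered libraries could share a batch. Deviations from the group means correlated by 0.12 (CTR and miR-294), 0.13 (CTR and siMbd2) and 0.022 (miR-294 and siMbd2). With 2 libraries a group such weak correlations cannot exclude a shared batch, and the main model holds no pairing. The replicate block gave 33 higher and 19 lower, 18 and 13, and 33 and 17 members in the 3 comparisons.

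With median-of-ratios size factors, miR-294 vs CTR became Hsp90ab1 0.043. With median-of-ratios size factors, siMbd2 vs CTR became Cct2 -0.0047, Cct3 -0.0091, Dnaja3 -0.012, Dnajb6 -0.011, Dnajc21 -0.025 and Tcp1 -0.0026. With median-of-ratios size factors, miR-294 vs siMbd2 became Dnaja2 0.022, Dnajb1 0.0029 and Dnajb11 0.044. After quantile normalization, miR-294 vs CTR became Cct3 -0.019, Dnaja2 -0.13, Dnajb11 -0.0032, Dnajc7 -0.0019, Hsp90b1 -0.14 and Hspa5 -0.11. After quantile normalization, siMbd2 vs CTR became Cct2 -0.080, Cct3 -0.086, Cct6a -0.039, Cct7 -0.031, Dnaja3 -0.073, Dnajb6 -0.049, Dnajc21 -0.083, Hspa4 -0.033, Hspa5 -0.046 and Tcp1 -0.071. After quantile normalization, miR-294 vs siMbd2 became Dnajb1 0.041, Dnajc7 -0.15, Hsp90ab1 -0.072, Hspa5 -0.065 and Hspa8 -0.0066. At equal summed RPKM, miR-294 vs CTR became Dnaja2 -0.13, Dnajb1 -0.050 and Dnajb11 -0.12. At equal summed RPKM, siMbd2 vs CTR became Cct2 -0.065, Cct3 -0.070, Cct6a -0.060, Cct7 -0.046, Dnaja3 -0.071, Dnajb6 -0.071, Dnajc21 -0.085, Hspa4 -0.032, Hspa5 -0.057 and Tcp1 -0.063. At equal summed RPKM, miR-294 vs siMbd2 became Dnajc7 -0.063 and Hsp90aa1 -0.056. With 1 library left out, the ranges that crossed 0 in miR-294 vs CTR were Dnaja2 -0.064 to 0.11 and Hsp90ab1 -0.064 to 0.0089. With 1 library left out, the ranges that crossed 0 in siMbd2 vs CTR were Cct2 -0.0054 to 0.050, Cct3 -0.016 to 0.052, Cct6a -0.051 to 0.11, Cct7 -0.018 to 0.10, Dnaja3 -0.042 to 0.070, Dnajb6 -0.043 to 0.075, Dnajc21 -0.062 to 0.065, Hspa13 -0.11 to 0.061, Hspa4 -0.057 to 0.17, Hspbp1 -0.11 to 0.28 and Tcp1 -0.0020 to 0.050. With 1 library left out, the ranges that crossed 0 in miR-294 vs siMbd2 were Dnajc7 -0.050 to 0.063, Hsp90aa1 -0.011 to 0.039 and Hspb11 -0.0021 to 0.26.

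The table holds RPKM without read counts, so depth cannot be weighed for the members at low RPKM, such as Hspa1b and Hspb2.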
